A study of Mus musculus with 4 samples.

Results

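The genes described here make up sterol and fatty acid synthesis together with its regulator SREBP. They were chosen by name from a list of 32 symbols, with earlier results of these data known. Of the 32, 31 matched a row among the 37620 genes of the count table, and Hmgcs1 was not analysed here. The 31 genes fall into a sterol branch of 18 genes (6 of the mevalonate arm and 12 of the arm from squalene to cholesterol), a fatty acid branch of 7 genes, and 6 genes of SREBP control and sterol transport. The study asked what happens in mouse embryonic stem cells (mESCs) when CTCF, a protein that binds DNA and shapes chromatin loops, can no longer carry the sugar O-GlcNAc at residue T668. RNA was sequenced from 2 lines, with 2 libraries each. Both lines descend from CTCF-EGFP-AID ESCs, in which the tagged endogenous CTCF is degraded when auxin is added, and both were grown on gelatin in serum medium (15% FBS) with LIF (1000 U/mL). WT_CTCF mESCs carry a vector with wild-type CTCF, and MUT_CTCF mESCs carry the same vector with an alanine in place of the threonine at T668. Each line was grown from a picked clone after Hygromycin selection, so a difference between the lines and a difference between the clones cannot be told apart. By the study's methods, picked clones of both lines received auxin for 2 days, so that the endogenous protein was degraded. Total counts were 40977464 and 40824156 for WT_CTCF and 40899401 and 40524694 for MUT_CTCF, so that 3 counts, the most that sampling allows for a gene listed at 0, come to between 0.0732 and 0.0740 CPM (counts scaled by library size), a limit of counting error only. The study names the libraries of a line as biological replicates, and the p-values measure only the spread between these samples. An exact permutation test with 2 libraries on each side cannot reach a two-sided p under 0.333, so the calls below use the spread that edgeR pools over genes.

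Cells build cholesterol from acetyl-CoA through mevalonate and farnesyl diphosphate, which is joined into squalene, closed into lanosterol and trimmed to cholesterol, while fatty acids are built from the same acetyl-CoA by the carboxylase Acaca and the synthase Fasn. SREBP proteins, encoded by Srebf1 and Srebf2, are held in the endoplasmic reticulum by Scap and the Insig proteins when sterols are plentiful, and are carried to the Golgi, cut and sent to the nucleus when sterols are scarce. There they bind promoters of both branches, the product of Srebf2 mostly those of sterol genes and the product of Srebf1 more those of fatty acid genes, and Insig1 and Srebf2 are themselves targets.

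Ctcf, the replaced gene, had 18310 and 18677 normalized counts (counts scaled to the mean library by edgeR's TMM factors) in WT_CTCF and 18799 and 19334 in MUT_CTCF mESCs. The MUT_CTCF libraries lay just above the WT_CTCF libraries, and the counts do not separate the endogenous from the vector's transcript. Its log2 fold change of MUT_CTCF over WT_CTCF was 0.04 (SE 0.028, edgeR adjusted p = 0.499). All 12 embryonic stem cell markers were present, with summed normalized counts of 321670, 320540, 319430 and 318830 in WT_CTCF replicates 1 and 2 and MUT_CTCF replicates 1 and 2. Nanog had the most counts and Dppa5a the most per kilobase of exon, Sox2 was called higher (0.10 on the log2 scale), and Utf1 (-0.21) and Dppa5a (-0.10) were called lower, with 2 higher and 4 lower at an unadjusted p under 0.05. The call of Sox2 was lost in 6 of 11 alternative settings and those of Utf1 and Dppa5a in 5 each, the exact test among them for Sox2 and Dppa5a and either MUT_CTCF library left out for all 3. Without WT_CTCF replicate 1, the log2 fold change of Dppa5a was -0.0548. Of 10 fibroblast feeder markers, 6 were tested and 0 were called by edgeR (0 higher and 1 lower at an unadjusted p under 0.05, and 0 by DESeq2, which gave an adjusted p for 1), Pdgfrb had the most counts and Thy1 the most per kilobase, and Lum was at 0 in all 4 libraries; the list's summed counts were 2263, 2284, 2316 and 2586. Of 10 primitive endoderm markers, 8 were tested and 0 were called by edgeR or by DESeq2, which gave an adjusted p for 3 (2 higher and 1 lower at an unadjusted p under 0.05). Their sums were 24736, 24657, 24160 and 23688, while 5 of the 8 had a log2 fold change above 0 and the median was 0.16. The 3 at that unadjusted p were named after their values were seen. Gata6 had 57.1 and 50.1 normalized counts in WT_CTCF and 98.2 and 109 in MUT_CTCF mESCs (log2 fold change 0.95, edgeR adjusted p = 0.0733) and shares exon positions with 1010001N08Rik, Sox17 had a log2 fold change of 0.75 (edgeR adjusted p = 0.259), and Sparc, which led the sums, one of -0.09 (edgeR adjusted p = 0.108). The markers of the 2-cell-like state, a rare state of mESCs, moved with the groups: their summed counts were 2879 and 2778 in WT_CTCF and 2287 and 2195 in MUT_CTCF mESCs, with Usp17la highest by counts, Zscan4d highest per kilobase, and none at 0. Of the 8 listed markers 6 matched a row, Tmem92 by that of Tmem92-ps, and Tcstv1 and Tcstv3 did not. All 6 matched genes had a log2 fold change below 0, with a median of -0.28. At an unadjusted p under 0.05, 0 were higher and 4 lower. Zscan4d was called lower by edgeR (-0.53), though not without either MUT_CTCF library (-0.49 and -0.58) or a filter on low counts; DESeq2 gave none of the 6 an adjusted p. The part of the endoderm and 2-cell-like markers in the results on synthesis genes was not tested. In such bulk samples, fewer cells of a type and less RNA per cell cannot be told apart.

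Of the 31 genes, 8 were higher in MUT_CTCF than in WT_CTCF mESCs and 0 were lower, at an adjusted p under 0.05 from edgeR's quasi-likelihood test over 16264 tested genes. Over all tested genes, 253 were called higher, which is 1.56%, and 262 were called lower, which is 1.61%. Of all tested genes, 54.5% had a mean count above that of Tm7sf2, the lowest of the 31. Small changes are harder to call at low counts, and shares among genes of like count were not computed. The 8 were Scd2, Scd1 and Fasn of the fatty acid branch, Dhcr7, Sc4mol (now Msmo1) and Cyp51 of the sterol branch, and Insig1 and Srebf2 of SREBP control. At an unadjusted p under 0.05, 17 of the 31 were higher and 0 were lower, where 7.61% of all tested genes were higher and 7.65% lower. DESeq2, which gave an adjusted p for 27 of the 31, and edgeR's exact test also called 0 of them lower. Log2 fold changes were above 0 in 26 of the 31, with a median of 0.10, against 50.8% above 0 and a median of 0.00 over all tested genes. The MUT_CTCF libraries were the higher pair in 21 of the 31 genes and the lower pair in 3, where over all tested genes they were the higher pair in 22.3% and the lower pair in 22.3%. The groups overlapped in the other 7. The 31 genes were chosen with earlier results of these data known. Their shares beside those of all tested genes are therefore descriptive only. The changes were small: the largest was a rise of 36.8%, in Scd2. None passed the criterion of the study, which asks for a fold change above 2 at an unadjusted p under 0.05 and which 154 tested genes met upward (0.947%) and 58 downward (0.357%). With scaling by library size in place of TMM, the calls over all genes were 260 higher and 152 lower. Without either one of the MUT_CTCF libraries, edgeR called 0 genes of the whole table, and so 0 of the 8. All 8 kept a positive log2 fold change under all 11 alternative settings.

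**Figure D1:**
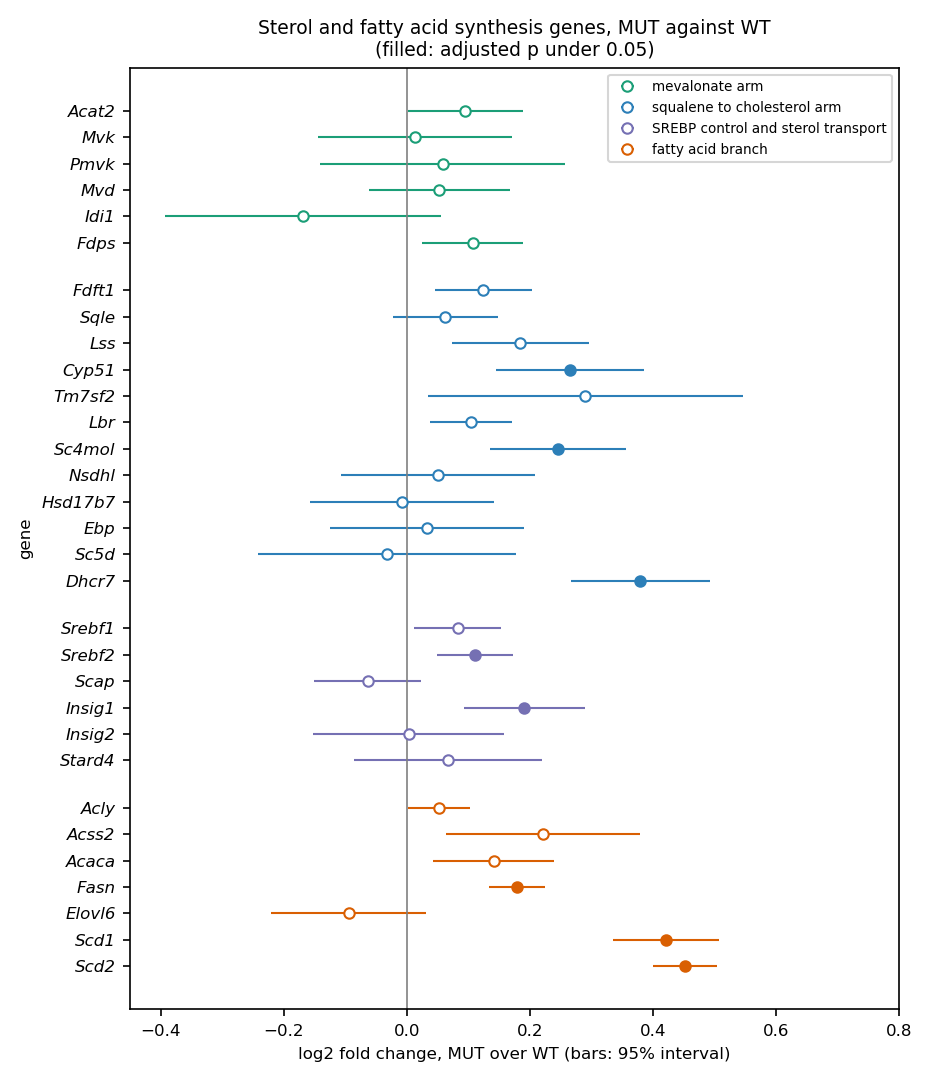
Log2 fold change of each of the 31 genes, MUT_CTCF over WT_CTCF, in pathway order (points, with 95% intervals as bars and filled points for an adjusted p under 0.05). The 8 filled points all lie to the right of 0, and the farthest are Scd2 at 0.45, Scd1 at 0.42 and Dhcr7 at 0.38.

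**Figure D2:**
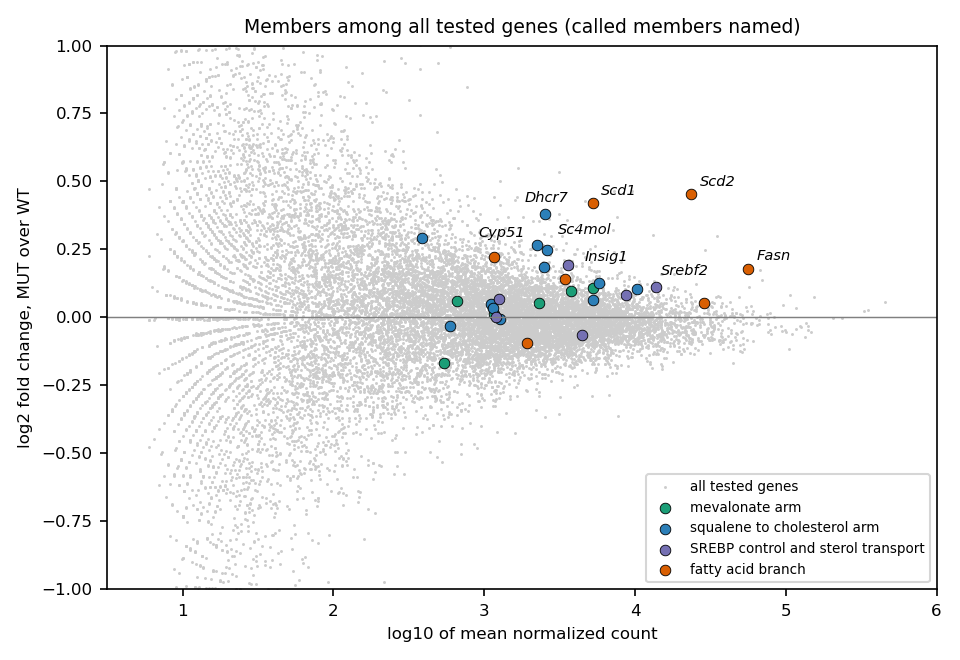
The 31 genes among all tested genes, with the log10 of the mean normalized count on the horizontal axis and the log2 fold change on the vertical axis; 426 tested genes fall outside the axes. Scd2, with the smallest p of all tested genes, stands clear of genes of its level, while most of the other members lie within the grey band.

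All 31 genes were expressed well above the limit of detection, and all were tested. Levels between genes were compared as normalized counts per kilobase of exon. In WT_CTCF mESCs, Acly (5334) and Fasn (5330) had the highest levels per kilobase of all 31 genes, followed by Fdps (4091), Scd2 (3654) and Lbr (2804). The lowest were Tm7sf2 (100.4) and Acss2 (105.3). The length is that of all annotated exons of a gene together, which can exceed that of its transcripts, and came to 10163 bases for Acss2. By mean normalized counts in WT_CTCF mESCs, Acss2 (1070) stood above Idi1 (572). Within the fatty acid branch the median level was 928.7 per kilobase, that of Scd1, and within the sterol branch it was 452.4. The most abundant transcripts per kilobase were thus those of the citrate lyase Acly and the synthase Fasn in the fatty acid branch and of the farnesyl diphosphate synthase Fdps in the sterol branch. These differences in level between genes were not tested.

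**Figure D3:**
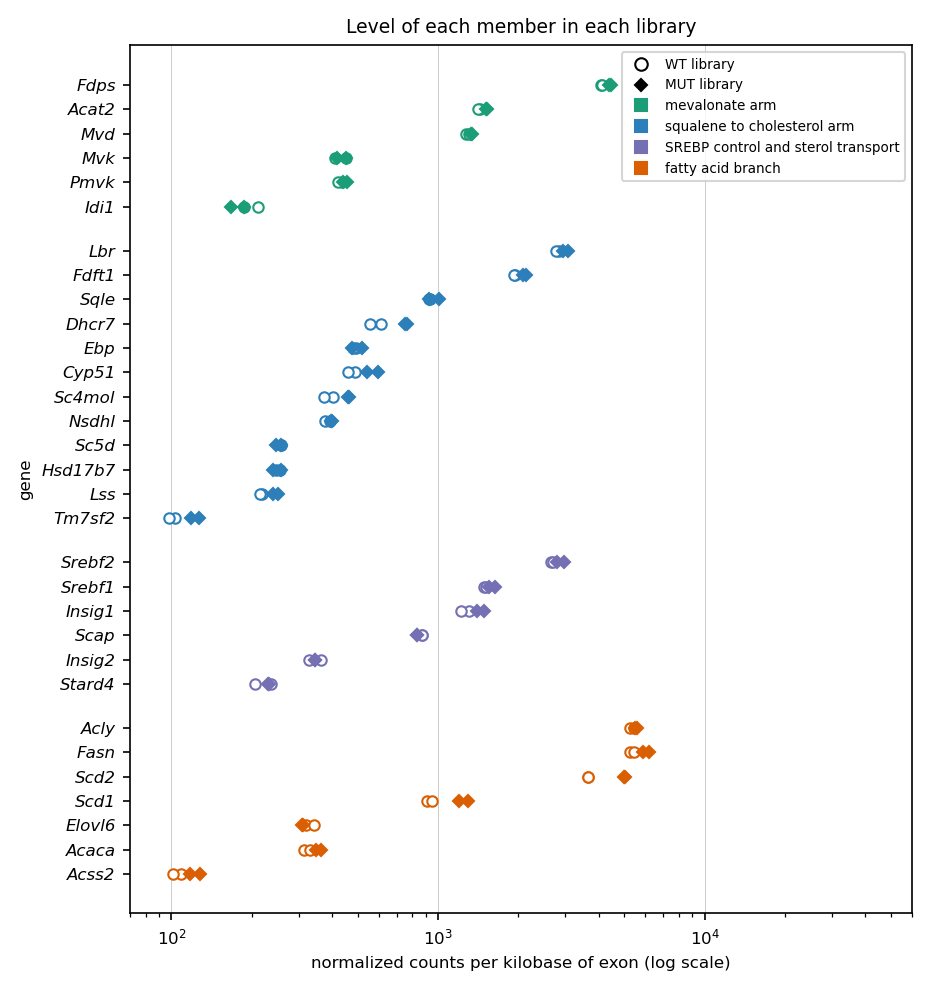
Normalized counts per kilobase of exon (log axis) of each gene in each of the 4 libraries, sorted by level within each arm, with open circles for WT_CTCF and filled diamonds for MUT_CTCF libraries. Levels run from about 100.4 for Tm7sf2 to 5334 for Acly in WT_CTCF mESCs, and shifts between the groups are small beside that range.

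In the mevalonate arm, which leads from acetyl-CoA to farnesyl diphosphate, 0 of 6 tested genes were called by edgeR, its exact test or DESeq2 (which gave an adjusted p for 4), with 1 higher and 0 lower at an unadjusted p under 0.05. The 1 was Fdps, which makes farnesyl diphosphate. It had 5018 and 5071 normalized counts in WT_CTCF and 5472 and 5395 in MUT_CTCF mESCs, with no overlap between the groups. Its log2 fold change was 0.11 (95% interval 0.02 to 0.19, edgeR adjusted p = 0.175). Acat2, which joins acetyl-CoA units at the entry, also showed no overlap, at 3645 and 3594 against 3885 and 3848, and its log2 fold change was 0.10 (edgeR adjusted p = 0.33). The kinases Mvk and Pmvk and the decarboxylase Mvd had log2 fold changes of 0.01, 0.06 and 0.05 (edgeR adjusted p = 0.969, 0.863 and 0.753). Idi1, the isomerase of isopentenyl diphosphate, had the lowest log2 fold change of the sterol branch, with 606 and 538 normalized counts in WT_CTCF and 538 and 480 in MUT_CTCF mESCs. The higher MUT_CTCF library met the lower WT_CTCF library, and the log2 fold change was -0.17 (95% interval -0.39 to 0.05, edgeR adjusted p = 0.53). With 1 library left out, the log2 fold change of Idi1 lay between -0.253 and -0.0814. The arm had a median log2 fold change of 0.06.

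In the arm from squalene to cholesterol, 3 of 12 genes rose and 0 fell, and the median log2 fold change was 0.11. Dhcr7 (ENSMUSG00000058454, chr7:151009050-151034315 of mm9), the reductase that finishes cholesterol on one route, had the largest change of the sterol branch. Its normalized counts were 2105 and 2308 in WT_CTCF and 2841 and 2903 in MUT_CTCF mESCs. The gap between the groups was wider than the gap between libraries of a group. The log2 fold change was 0.38 (SE 0.058, edgeR adjusted p = 7.89e-06), a rise of 30.1%, and it lay between 0.31 and 0.45 over the alternatives (adjusted p between 7.41e-09 and 0.417). The call was lost when low counts were not filtered (adjusted p = 0.0895) and without either MUT_CTCF library (0.40 without replicate 1 and 0.36 without replicate 2).

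RefSeq lists 3 starts for Dhcr7 in GRCm38.p6, a later build than mm9 whose coordinates cannot be set beside those above. The windows from 250 bases before to 50 bases after a start are shown for 2 of them, since the window of the remaining start overlaps the first, and are on the plus strand at chr7:143822917-143823216 and chr7:143829964-143830263. Capitals mark the NF-Y box CCAAT, the GC box GGGCGG and the E-box CACGTG on either strand, letters bound by factors that are known to work beside SREBP or, for the E-box, by SREBP itself.
Dhcr7, upstream start: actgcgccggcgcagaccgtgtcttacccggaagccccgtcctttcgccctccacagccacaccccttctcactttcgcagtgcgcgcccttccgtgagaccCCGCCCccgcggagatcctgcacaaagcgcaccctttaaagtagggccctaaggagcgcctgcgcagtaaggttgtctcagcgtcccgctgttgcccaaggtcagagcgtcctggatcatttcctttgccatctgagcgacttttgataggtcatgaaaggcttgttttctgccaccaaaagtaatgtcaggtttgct
Dhcr7, downstream start: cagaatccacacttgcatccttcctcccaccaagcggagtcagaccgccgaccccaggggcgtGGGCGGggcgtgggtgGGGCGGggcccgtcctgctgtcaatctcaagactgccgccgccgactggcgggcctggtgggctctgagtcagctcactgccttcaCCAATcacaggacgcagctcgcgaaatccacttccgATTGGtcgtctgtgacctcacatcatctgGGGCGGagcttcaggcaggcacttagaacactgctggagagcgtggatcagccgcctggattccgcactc
The upstream window held 1 GC box, and the downstream window held 2 NF-Y boxes and 3 GC boxes. The counts do not tell which start was used.

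Cyp51 (ENSMUSG00000001467, chr5:4081145-4104746 of mm9), which takes a methyl group off lanosterol, had 2087 and 1972 normalized counts in WT_CTCF and 2559 and 2319 in MUT_CTCF mESCs. The groups did not overlap, and the MUT_CTCF libraries differed from each other more than the WT_CTCF libraries did. Its log2 fold change was 0.26 (SE 0.061, edgeR adjusted p = 0.00619). Sc4mol (ENSMUSG00000031604, chr8:67196936-67212589 of mm9), an oxidase that acts on the remaining methyl groups, had 2477 and 2300 in WT_CTCF and 2852 and 2815 in MUT_CTCF mESCs. Again both MUT_CTCF libraries were higher, and the log2 fold change was 0.25 (SE 0.056, edgeR adjusted p = 0.00552). Without WT_CTCF replicate 2 neither was called, with log2 fold changes of 0.22 for Cyp51 (adjusted p = 0.129, between 0.000926 and 0.499 over the alternatives) and 0.19 for Sc4mol (adjusted p = 0.189, between 0.000937 and 0.484). With MUT_CTCF replicate 1 left out they were 0.19 and 0.24, with MUT_CTCF replicate 2 left out 0.33 and 0.25, and with no filter on low counts 0.26 and 0.25, none of them called.

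A further 3 genes of this arm came near the threshold and were not called in the main setting of edgeR's quasi-likelihood test or by DESeq2. Lss, which closes squalene epoxide into lanosterol, had 2357 and 2324 normalized counts in WT_CTCF and 2602 and 2717 in MUT_CTCF mESCs, and its log2 fold change was 0.18 (edgeR adjusted p = 0.0584, between 0.0329 and 0.521 over the alternatives). Lss was called by the exact test (adjusted p = 0.0451), with library size only (0.0471), with at least 10 counts in every library (0.0383) and with the replicate block (0.0329). Fdft1, which makes squalene, had a log2 fold change of 0.12 (edgeR adjusted p = 0.0791) and Lbr one of 0.10 (edgeR adjusted p = 0.0775), and neither overlapped between the groups. Both were called with the replicate block, and Lbr also with library size only (adjusted p = 0.0472). Lss shares exon positions with 4930483K19Rik, which had 13 and 4 counts in WT_CTCF and 20 and 10 in MUT_CTCF mESCs. Fdft1 shares them with Ctsb, which had 7324 and 7321 counts in WT_CTCF and 8278 and 8178 in MUT_CTCF mESCs. Ctsb was itself called higher, with a log2 fold change of 0.16 (edgeR adjusted p = 0.00401). Without a stated strand setting of the counting, reads of such neighbours cannot be told apart. Sqle, whose epoxidase step limits the rate of the arm, overlapped between the groups and had a log2 fold change of 0.06 (edgeR adjusted p = 0.551). Nsdhl (0.05), Ebp (0.03), Hsd17b7 (-0.01) and Sc5d (-0.03), which trim and rearrange the sterol rings, lay close to 0, with edgeR adjusted p of 0.845, 0.905, 0.978 and 0.934.

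Lbr and Tm7sf2 encode sterol reductases that act on the same double bond, and Lbr also anchors chromatin to the nuclear envelope. Lbr had 10068 and 9847 normalized counts in WT_CTCF and 10928 and 10480 in MUT_CTCF mESCs. Tm7sf2 had 359 and 341 in WT_CTCF and 414 and 442 in MUT_CTCF mESCs, so neither gene overlapped between the groups. The log2 fold change of Tm7sf2 was 0.29 (95% interval 0.04 to 0.55, edgeR adjusted p = 0.267), and it shares exon positions with 1110014N23Rik. Per kilobase, Lbr stood 27.5 and 28.3 times above Tm7sf2 in WT_CTCF and 25.9 and 23.2 times in MUT_CTCF mESCs, so almost all transcripts of this reductase pair were those of Lbr in every library.

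Of the 6 genes of SREBP control and sterol transport, 2 rose, Insig1 and Srebf2, and 0 fell, and the median log2 fold change was 0.07. Insig1 (ENSMUSG00000045294, chr5:28397952-28405201 of mm9), which retains SREBP in the endoplasmic reticulum, had 3450 and 3242 normalized counts in WT_CTCF and 3700 and 3940 in MUT_CTCF mESCs. Both MUT_CTCF libraries were higher, by about as much as libraries of a group differed. Its log2 fold change was 0.19 (SE 0.050, edgeR adjusted p = 0.019). Without WT_CTCF replicate 2 it was 0.15 and not called (adjusted p = 0.315, between 0.00517 and 0.532 over the alternatives), and the call was also lost with no filter on low counts (0.19) and when MUT_CTCF replicate 1 (0.24) or MUT_CTCF replicate 2 (0.14) was left out. Insig2, its paralog, had 1137 and 1262 in WT_CTCF and 1202 and 1201 in MUT_CTCF mESCs, with the MUT_CTCF libraries between the WT_CTCF libraries. The log2 fold change of Insig2 was 0.00 (95% interval -0.15 to 0.16, edgeR adjusted p = 0.993). Per kilobase, Insig1 was 3.98 and 3.37 times as high as Insig2 in WT_CTCF and 4.04 and 4.30 times in MUT_CTCF mESCs.

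The promoter of Insig1 (RefSeq, GRCm38.p6, chr5:28071162-28071461, plus strand) is shown because it is the called gene of this group with the smallest p, with the same motifs in capitals.
Insig1: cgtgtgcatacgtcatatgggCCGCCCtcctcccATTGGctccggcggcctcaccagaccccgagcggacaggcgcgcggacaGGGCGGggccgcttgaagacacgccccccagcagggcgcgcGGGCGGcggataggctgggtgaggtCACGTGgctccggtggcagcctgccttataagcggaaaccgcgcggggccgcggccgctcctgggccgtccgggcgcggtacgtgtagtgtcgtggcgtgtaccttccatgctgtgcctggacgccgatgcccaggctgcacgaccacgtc
It held 1 NF-Y box, 3 GC boxes and 1 E-box, the last of them starting 101 bases before the start.

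Srebf2 (ENSMUSG00000022463, chr15:81977696-82035806 of mm9) had 13228 and 13445 normalized counts in WT_CTCF and 13967 and 14838 in MUT_CTCF mESCs. Its MUT_CTCF libraries were higher and farther apart than its WT_CTCF libraries. The log2 fold change was 0.11 (SE 0.032, edgeR adjusted p = 0.0344), and DESeq2 (adjusted p = 0.0579) and edgeR's exact test (0.0716) did not call it. Leaving out any library ended the call, with log2 fold changes of 0.10 (no WT_CTCF replicate 1), 0.12 (no WT_CTCF replicate 2), 0.15 (no MUT_CTCF replicate 1) and 0.07 (no MUT_CTCF replicate 2), and so did leaving low counts unfiltered (0.11), and its adjusted p ran from 0.011 to 0.54 over the alternatives. Srebf1 had 8410 and 8547 in WT_CTCF and 8726 and 9229 in MUT_CTCF mESCs, without overlap. Its log2 fold change was 0.08 (edgeR adjusted p = 0.245), 0.04 without MUT_CTCF replicate 2 and 0.12 without MUT_CTCF replicate 1. Srebf1 shares exon positions with Rai1, which had 1874 and 1992 counts in WT_CTCF and 2113 and 2154 in MUT_CTCF mESCs. The ratio of Srebf2 to Srebf1 per kilobase was 1.78 in both WT_CTCF libraries, against 1.81 and 1.82 for MUT_CTCF. Scap, the escort of SREBP, was lower in both MUT_CTCF libraries, at 4530 and 4541 against 4355 and 4322. Its log2 fold change of -0.06 did not pass the test (edgeR adjusted p = 0.551), and Scap shares exon positions with 5830462I19Rik. Stard4, a carrier of cholesterol between membranes, overlapped between the groups and had a log2 fold change of 0.07 (edgeR adjusted p = 0.77).

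In the fatty acid branch, 3 of 7 genes rose and 0 fell, and the median log2 fold change was 0.18. The 3 were the synthase Fasn and the desaturases Scd1 and Scd2, which put the first double bond into fatty acids. Scd2 (ENSMUSG00000025203, chr19:44368166-44381354 of mm9) had 19864 and 19985 normalized counts in WT_CTCF and 27386 and 27143 in MUT_CTCF mESCs. Libraries of a group nearly coincided, while the groups stood far apart. The log2 fold change was 0.45 (SE 0.027, edgeR adjusted p = 1.55e-19), with the smallest p of all tested genes. Scd1 (ENSMUSG00000037071, chr19:44468941-44482199 of mm9) had 4382 and 4601 in WT_CTCF and 6252 and 5774 in MUT_CTCF mESCs. Both MUT_CTCF libraries were again well above, with a log2 fold change of 0.42 (SE 0.044, edgeR adjusted p = 2.12e-10), a rise of 33.9%. Per kilobase, Scd2 was 4.02 and 3.85 times as high as Scd1 in WT_CTCF and 3.88 and 4.17 times in MUT_CTCF mESCs, so the ratio of the pair overlapped between the groups. The 2 genes are paralogs, and reads that fit both equally were not counted for either, since uniquely mapped reads were used. Scd2 also encloses AC123853.2, which had 0 counts in every library. Without MUT_CTCF replicate 1, Scd2 had a log2 fold change of 0.45 (adjusted p = 0.0607, between 3.33e-61 and 0.0706 over the alternatives) and Scd1 one of 0.36 (adjusted p = 0.261, between 2.12e-20 and 0.261). Without MUT_CTCF replicate 2 they were 0.46 and 0.48, and neither was called. Of the 11 alternative settings, only these ended their calls.

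Fasn (ENSMUSG00000025153, chr11:120667254-120685492 of mm9), the most abundant transcript of the branch by total counts, had 51520 and 53478 normalized counts in WT_CTCF and 57920 and 60970 in MUT_CTCF mESCs. The groups did not overlap, and the log2 fold change was 0.18 (SE 0.023, edgeR adjusted p = 1.94e-07), a rise of 13.2%. It was not called when low counts were left in (adjusted p = 0.11, between 1.65e-13 and 0.398 over the alternatives) and without either MUT_CTCF library (0.22 without replicate 1 and 0.14 without replicate 2). Its promoter (RefSeq, GRCm38.p6, chr11:120824498-120824797, minus strand) is shown as that of the called gene of this branch with the smallest p among those with an entry.
Fasn: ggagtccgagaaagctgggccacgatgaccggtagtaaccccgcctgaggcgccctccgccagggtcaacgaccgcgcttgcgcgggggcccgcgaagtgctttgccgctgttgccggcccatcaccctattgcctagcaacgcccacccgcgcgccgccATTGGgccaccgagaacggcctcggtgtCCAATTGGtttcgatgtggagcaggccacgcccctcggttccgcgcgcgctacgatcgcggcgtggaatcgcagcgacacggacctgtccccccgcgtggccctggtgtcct
The window held 3 NF-Y boxes, of which the ones starting 62 and 59 bases before the start overlap on opposite strands, and no GC box or E-box.

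Acaca, which makes malonyl-CoA for Fasn, had 3194 and 3373 normalized counts in WT_CTCF and 3696 and 3547 in MUT_CTCF mESCs. Its log2 fold change was 0.14 (edgeR adjusted p = 0.12), and it shares exon positions with Gm17722. Acly, which makes acetyl-CoA from citrate, had 27723 and 28603 in WT_CTCF and 29028 and 29389 in MUT_CTCF mESCs, and its log2 fold change was 0.05 (edgeR adjusted p = 0.319). In both genes the MUT_CTCF libraries were the higher ones, but neither passed the test. Acss2, which makes acetyl-CoA from acetate, had a log2 fold change of 0.22 (95% interval 0.06 to 0.38, edgeR adjusted p = 0.132), with both MUT_CTCF libraries above; it shares exon positions with 4930471I20Rik, Ggt7 and Gss. Elovl6, which lengthens the product of Fasn, was the only gene of the branch below 0, with 1906 and 2046 in WT_CTCF and 1861 and 1840 in MUT_CTCF mESCs and a log2 fold change of -0.09 (edgeR adjusted p = 0.53).

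**Figure D4:**
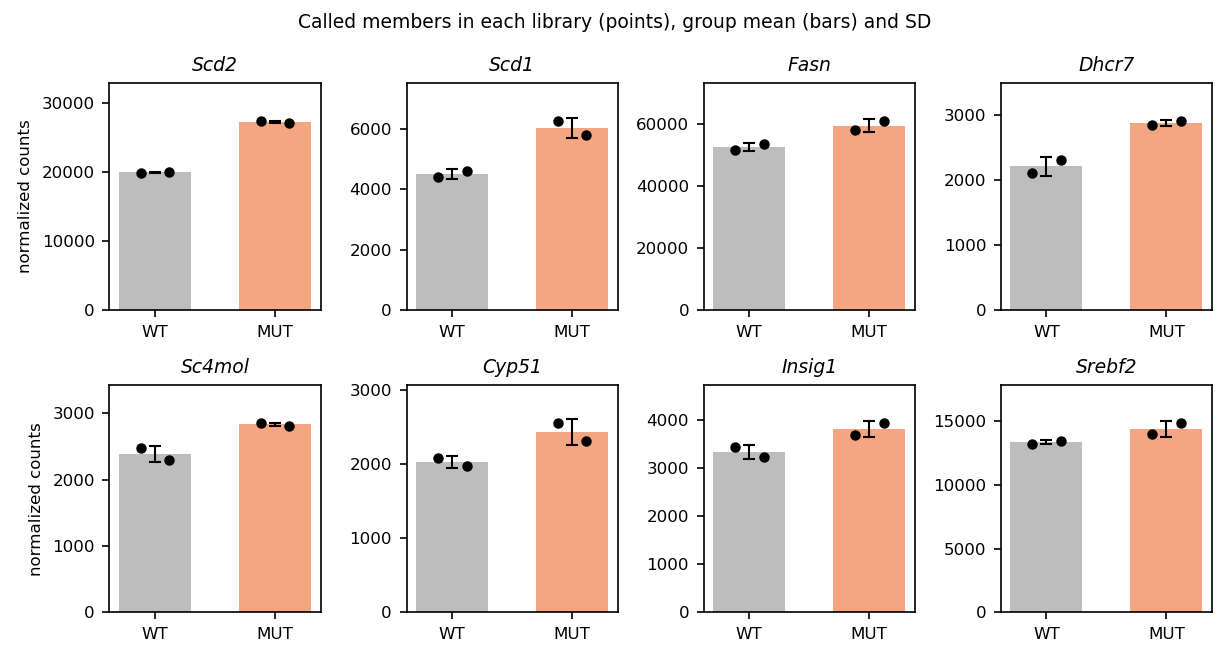
Normalized counts of the 8 called genes in each library (points), with group means as bars and the SD of 2 libraries as error bars, on axes from 0. In every panel both MUT_CTCF points lie above both WT_CTCF points, from 19864 and 19985 to 27386 and 27143 in Scd2.

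Set side by side, the branches differed in the share of called genes and in the size of the change, and the difference between them was not tested. In the sterol branch 3 of 18 genes rose, 15 had a log2 fold change above 0, and the median was 0.08. In the fatty acid branch 3 of 7 rose, 6 were above 0, and the median was 0.18. The 3 were Fasn and the paralogs Scd1 and Scd2, which lie near each other on chromosome 19. Apart from this pair, log2 fold changes of the branch ran from -0.09 (Elovl6) to 0.22 (Acss2), with 0.18 for Fasn. The part of this 1 locus in the difference between the branches was not tested. The MUT_CTCF libraries were the higher pair in 12 sterol genes and the lower pair in 1, Idi1, while in the fatty acid branch they were the higher pair in 6 and the lower pair in 1, Elovl6. Taken per library against the WT_CTCF mean, the median sterol gene stood at 0.01 and -0.01 on the log2 scale in WT_CTCF and at 0.11 and 0.08 in MUT_CTCF mESCs. The median fatty acid gene stood at -0.03 and 0.03 in WT_CTCF and at 0.16 and 0.22 in MUT_CTCF mESCs. In both branches the medians of the MUT_CTCF libraries lay above those of the WT_CTCF libraries. The WT_CTCF medians mirror each other around 0 because their own mean is the reference. The summed normalized counts of the sterol branch were 47510 and 47225 in WT_CTCF and 52132 and 50858 in MUT_CTCF mESCs, a ratio of 1.09. Those of the fatty acid branch were 109700 and 113120 in WT_CTCF and 127340 and 129960 in MUT_CTCF mESCs, a ratio of 1.15, and Fasn made up 46.6% of that sum. Genes that share exon positions with another gene number 3 in each of the 2 branches, and without them the median was 0.06 in the sterol branch and 0.12 in the fatty acid branch. The fatty acid median stayed at 0.18 when Scd2, whose only such neighbour had 0 counts, was kept, a choice made after the data were seen. With WT_CTCF replicate 2 left out, edgeR called 1 sterol gene and 3 fatty acid genes; with WT_CTCF replicate 1 left out it called 3 and 3, and with either MUT_CTCF library left out 0 and 0. Within the sterol branch, the arm after squalene held all 3 calls.

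**Figure D5:**
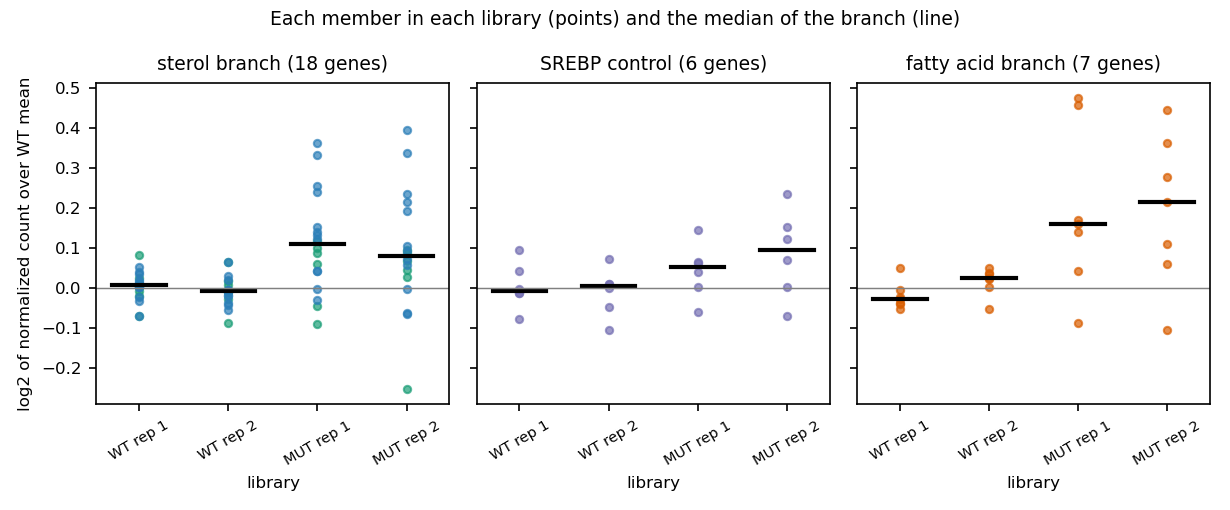
Log2 of each gene's normalized count over its WT_CTCF mean in each library (points; green for the mevalonate arm and blue for the squalene to cholesterol arm in the left panel), with the median of the branch as a line. The medians are 0.11 and 0.08 in the MUT_CTCF libraries for the sterol branch and 0.16 and 0.22 for the fatty acid branch.

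RefSeq promoter windows of 300 bases were found for 25 of the 31 genes; Fdps, Fdft1, Sqle, Stard4, Scd1 and Scd2 had no entry. Of the 25 genes, 21 held the NF-Y box CCAAT on either strand in at least 1 window, where 41.1% of the 27025 genes with a window did. The GC box GGGCGG was found in 21 of the 25, against 38.2% of all genes, and the E-box CACGTG in 5, against 8.09%. The core of the sterol regulatory element, searched as TCACNCCAC on either strand, was found in 0 of the 25 and in 1.44% of all genes, which says only that these letters are not in these windows. Among the 6 called genes with a window, all 6 held an NF-Y box, 5 a GC box and 2 an E-box, Insig1 and Dhcr7, the latter only in the window that is not shown. The shares of all genes include genes not expressed in these cells. Shares among expressed genes, or among windows of like GC content, were not computed. A match is a description of the sequence and was not tied to binding.

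Other genes of the pathway, also listed with earlier results known, were counted in the same way. Of 15 other reported SREBP targets, 3 rose and 0 fell by edgeR (5 higher and 0 lower at an unadjusted p under 0.05), with 13 above 0 and a median of 0.08 on the log2 scale. The 3 were the desaturases Fads2 (0.26, edgeR adjusted p = 0.00236) and Fads1 (0.19, edgeR adjusted p = 0.0104), which act on polyunsaturated fatty acids, and Acsl3 (0.26, edgeR adjusted p = 0.00583), which activates fatty acids and shares exon positions with Utp14b. Of 14 genes that process or degrade SREBP and its partners, 5 had a log2 fold change above 0 and 9 below, and the median was -0.05. Among them Rnf145, which encodes a ubiquitin ligase, rose (0.19, edgeR adjusted p = 0.00766), from 4169 and 4094 normalized counts in WT_CTCF to 4733 and 4687 in MUT_CTCF mESCs.

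Further lists of lipid genes were counted as well. Of 12 enzymes of non-sterol isoprenoids, 0 were called by edgeR or by DESeq2, which gave 8 of them an adjusted p (0 higher and 2 lower at an unadjusted p under 0.05), with a median of -0.01 on the log2 scale. Of 12 tested genes of sterol efflux, storage and the LXR receptors, 0 were called by edgeR or by DESeq2, which gave 5 of them an adjusted p, and the median was 0.04. At an unadjusted p under 0.05, 5 of these 12 were higher and 1 was lower, beside 7.61% and 7.65% of all tested genes. Of 14 tested genes of other fatty acid synthesis, elongation and activation, 1 fell, Hacd2 (-0.22, edgeR adjusted p = 0.0407), a dehydratase of the elongation cycle, and the median was 0.08. Of 17 genes of fatty acid oxidation, 1 fell, Slc25a20 (-0.17, edgeR adjusted p = 0.00428), the carnitine carrier of mitochondria, and the median was 0.00. The calls of Fads1, Fads2, Acsl3, Rnf145, Hacd2 and Slc25a20 were each lost when either MUT_CTCF library or the filter on low counts was left out. They were also lost without WT_CTCF replicate 1 in Fads2 (log2 fold change 0.20) and Slc25a20 (-0.14), without WT_CTCF replicate 2 in Acsl3 (0.24), and without either of them in Fads1 (0.20 and 0.18), Rnf145 (0.20 and 0.17) and Hacd2 (-0.25 and -0.20). Hacd2 was not called by DESeq2 (adjusted p = 0.094, between 0.0146 and 0.55 over the alternatives) or with library size only either. The directions of these 6 genes held in all 11 settings.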

How the data were processed

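RNA-seq was available from 2 WT_CTCF and 2 MUT_CTCF libraries. According to the submitters' processing notes and the study's methods, the authors trimmed reads with Trim Galore 0.4.4, aligned them to mm9 with STAR and counted uniquely mapped reads per gene with HTSeq 0.9.1; the deposited counts are not normalized, and the strand setting and annotation release are not stated. The authors' edgeR table (log2 fold change, average log2 CPM, p-value and FDR) was not used.

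Genes were named by GENCODE M1 on NCBIM37, which named 37205 of 37620 identifiers. After edgeR's filterByExpr (minimum count 10), 16264 genes were scaled by TMM and tested on the line alone with edgeR 4.0.16 (R 4.3.3), glmQLFit and glmQLFTest, with Benjamini-Hochberg adjustment over all tested genes and a threshold of 0.05. The SE is the size of the log2 fold change over the square root of F, and 95% intervals are 1.96 SE wide on each side. The fit was tested on simulated counts. Alternatives were DESeq2 1.42.0, the exact test, other scalings and filters, a fit with the replicate number as a block, and fits that each lack 1 library.

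The members and lists were chosen with earlier results of these data known. All 31 matched members are named; values in every library are given for called members, for the pairs Insig1 and Insig2, Srebf1 and Srebf2, Scd1 and Scd2, Tm7sf2 and Lbr, and for Scap, Fasn, Acaca and Acly. Of every other list the called genes are named, at most 5, except that 1 result is not reported here. Promoters are those of called members of different arms with the smallest p. Proteins were not used here.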

Additional observations from a re-analysis of the deposited data

How the results depend on the processing

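Higher genes over the whole table numbered 253 and lower genes 262, against 129 and 184 with DESeq2, 260 and 152 with library size only, 26 and 3 with no filter on low counts, 154 and 58 at the criterion of the study, and 0 to 140 and 0 to 102 with 1 library left out, where the lone library of a line is assumed to vary like the other line and fewer samples enter the fit. Higher sterol genes numbered 3, against 4 with the exact test and with at least 10 counts in every library, 5 with library size only, 0 with no filter, 0 at the criterion of the study and 0 to 3 with 1 library left out. Higher fatty acid genes numbered 3, against 2 with no filter, where Fasn was lost, 0 at that criterion and 0 to 3 with 1 library left out. Higher SREBP control genes numbered 2, against 1 with DESeq2, 1 with the exact test, 0 with no filter, 0 at that criterion and 0 to 1 with 1 library left out. The replicate numbers did not pair the libraries: same-numbered deviations from the group means had a correlation of 0.0189 over 11593 genes. With the replicate block, 326 genes were higher and 372 lower, and 6 sterol genes were called, with Lss, Fdft1 and Lbr added. DESeq2's independent filtering gave an adjusted p for 7120 of the 16264 genes. The cause of the losses with DESeq2 and with no filter was not tested. The sterol median was 0.0582 and the fatty acid median 0.116 over genes that share no exon position, and 0.0582 and 0.179 over genes that share none with a gene that has counts, a setting chosen after seeing the data; with 1 library left out, the sterol median lay between 0.0811 and 0.108 and the SREBP control median between 0.0513 and 0.0963. Of the 31 genes, 6 changed sign, none of them called: with 1 library left out, Mvk ran from -0.0539 to 0.0809, Sqle from -0.000963 to 0.121, Hsd17b7 from -0.0612 to 0.0425 (0.00481 with library size only), Ebp from -0.0297 to 0.0926, Insig2 from -0.0705 to 0.0783 and Stard4 from -0.0305 to 0.17, and the cause was not tested. No branch had a lower call under any setting. Depth limits most the genes with few counts, Tm7sf2 among the synthesis genes.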

Other observations

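Scd1 and Scd2 lie near each other on chromosome 19 of mm9, and their neighbours were looked at after the values of both had been seen. Between Scd2 and Scd1 lies Scd4, which had 2 and 1 counts in WT_CTCF and 1 and 3 in MUT_CTCF mESCs and was not tested. The tested genes before Scd2 are Scd3, with 63 and 58 counts in WT_CTCF and 67 and 94 in MUT_CTCF mESCs, and Pkd2l1. Scd3 had a log2 fold change of 0.41 (95% interval -0.22 to 1.04, edgeR adjusted p = 0.617). Pkd2l1, which encodes a cation channel, had 619 and 565 normalized counts in WT_CTCF and 804 and 769 in MUT_CTCF mESCs. Both MUT_CTCF libraries lay clearly higher, and its log2 fold change was 0.41 (SE 0.10, edgeR adjusted p = 0.0109). On the other side, Sec31b had 129 and 153 normalized counts in WT_CTCF and 205 and 225 in MUT_CTCF mESCs, with a log2 fold change of 0.61 (edgeR adjusted p = 0.0705), and it shares exon positions with Ndufb8. Ndufb8, the next gene, was at -0.04 (edgeR adjusted p = 0.777). Scd2 and Scd1 prompted this look, so their own calls add nothing to it. Among the tested neighbours named here, Pkd2l1 was called higher, and Scd3, Sec31b and Ndufb8 were not called.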
